A study of Mus musculus with 2 samples.

Results

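The 10 mouse Frizzled genes, Fzd1 to Fzd10, were measured in the embryonic heart by RNA sequencing. They were chosen by their symbols and from their levels and their difference between the libraries, and they made up 10 of 43346 gene rows. Their values are therefore given as a description of 2 hearts, without a test. The Dishevelled-binding motif by which the family is known was found in each of the 9 coding sequences examined for it.

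Frizzled proteins are cell surface receptors with several membrane-spanning helices and an extracellular cysteine-rich domain that binds the lipid-modified Wnt ligands. With the co-receptors Lrp5 and Lrp6 they pass the signal through Dishevelled to a complex that otherwise marks beta-catenin for destruction, and stabilised beta-catenin then acts with TCF/LEF factors on target genes. Other Frizzled signals act without beta-catenin, through planar cell polarity proteins that orient cells within a tissue. In the embryonic heart Wnt signalling is known for its parts in the growth of cardiac progenitors, in the outflow tract and in valve formation.

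The series holds 1 group of 2 libraries, each described as a single heart of a B6NCrl mouse (a C57BL/6 substrain) at embryonic day 14.5, when the chambers are being septated. Replicate 1 was collected on day 15 of July and replicate 2 on day 17, and both labels read pup 1 of pregnant 2. Hearts of the same embryonic day collected on different days would come from different litters. Embryo, litter and day of collection thus differ together and cannot be told apart. No treatment or genotype is named for either heart. Per the labels, RNA above 200 nt was extracted with the mirVana method, 10 ng went into each library, spike-in RNAs were added and a Smart-seq document is cited. The libraries come from separate embryos, so the spread between them holds differences between embryos as well as technical noise.

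The libraries held 2.85e+07 and 2.90e+07 expected counts (estimated reads), of which 2.75e+07 and 2.79e+07 lay on gene rows. The labels give the sex of both hearts as a pool of male and female. The Y-linked genes Ddx3y, Uty, Kdm5d and Eif2s3y had 965 to 2310 counts each in replicate 1 and 0 in replicate 2, where a count of 0 allows up to 3 counts. Xist, the RNA that silences an X chromosome, had 15.7 counts in replicate 1 and 13912 in replicate 2. These values go against a pool in either library, and the sex-linked genes split the hearts the same way as every difference described here. None of the Frizzled genes lies on a sex chromosome. The cardiac label held, with the contractile genes Actc1 at 12209 and 11607 TPM (the transcript level, corrected for depth and for transcript length) and Tnnt2 at 6128 and 5706 TPM.

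Frizzled receptors bind Dishevelled through a motif of their cytoplasmic tail, Lys-Thr-x-x-x-Trp, and its codons are shown because they are the signalling sequence that the receptors share. The coding strand was searched, and the motif occurred exactly 1 time in each of the 9 coding sequences other than that of Fzd2, whose motif is not reported here. Among the longest coding sequences of 21562 protein-coding genes, 2.11% held it. Each window spans 36 nt, 5′ to 3′ on the coding strand (GENCODE M21, GRCm38), with the codons of Lys, Thr and Trp in capitals. That of Fzd8 is not shown.
Fzd1, chr5:4755697-4755732, minus strand: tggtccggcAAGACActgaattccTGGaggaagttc
Fzd7, chr1:59484598-59484633, plus strand: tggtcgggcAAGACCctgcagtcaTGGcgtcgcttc
Fzd5, chr1:64735002-64735037, minus strand: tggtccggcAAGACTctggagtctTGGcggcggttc
Fzd4, chr7:89408232-89408267, plus strand: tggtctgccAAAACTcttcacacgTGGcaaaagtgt
Fzd9, chr5:135249407-135249442, minus strand: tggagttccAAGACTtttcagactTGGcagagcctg
Fzd10, chr5:128602787-128602822, plus strand: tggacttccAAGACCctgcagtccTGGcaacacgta
Fzd3, chr14:65212098-65212133, minus strand: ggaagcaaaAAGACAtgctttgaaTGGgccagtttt
Fzd6, chr15:39033940-39033975, plus strand: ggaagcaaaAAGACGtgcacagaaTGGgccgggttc
The window of Fzd7 was identical to that of Fzd5 at 30 of 36 bases and to those of Fzd1 and Fzd10 at 26. It was least like those of Fzd6, at 14 bases, and Fzd3, at 13. Behind the Trp codon the coding sequence ran on for 17 codons in Fzd1 and in Fzd7, for 33 to 74 codons in Fzd4, Fzd5, Fzd8, Fzd9 and Fzd10, and for 159 and 206 codons in Fzd3 and Fzd6. Fzd1 and Fzd7 thus shared a tail of the same length, and Fzd3 and Fzd6 had the longest tails of the 9.

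Over the whole coding sequence Fzd7 was most like Fzd2 and Fzd1, which are its subgroup. Fzd1 and Fzd2 were identical at 82.0% of aligned bases, Fzd2 and Fzd7 at 78.6%, Fzd1 and Fzd7 at 78.5%, Fzd5 and Fzd8 at 76.3% and Fzd9 and Fzd10 at 71.8%. The other 40 pairs reached at most 71.2%. The longest runs of bases that Fzd1, Fzd2 and Fzd7 shared pairwise are shown because a read lying wholly inside one would fit both genes.
Fzd1 and Fzd2, chr5:4756331-4756377 in Fzd1: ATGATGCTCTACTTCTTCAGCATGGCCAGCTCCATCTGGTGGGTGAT
Fzd1 and Fzd7, chr5:4756964-4757010 in Fzd1: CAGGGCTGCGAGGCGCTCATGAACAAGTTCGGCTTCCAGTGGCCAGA
Fzd2 and Fzd7, chr11:102606064-102606101 in Fzd2: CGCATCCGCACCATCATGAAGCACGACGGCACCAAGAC
The runs were 47, 47 and 38 nt long, and a longer read reaches past a run to bases that differ. Of all stretches of 25 nt in a transcript, 3.14% of those of Fzd1, 3.90% of those of Fzd2 and 1.60% of those of Fzd7 also occurred in another Frizzled transcript, and at most 0.203% in the other 7 genes. In the deposited tables the posterior standard deviation of the count, an estimate of how uncertain the sharing of reads among rows was, came to 0 in both libraries for 9 of the 10 genes. The exception was Fzd5, at 1.41 and 0.86 counts.

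Of the 10 genes, 9 reached 1 TPM in each heart, against 12202 of 21474 protein-coding rows (56.8%). Summed over the family, the level came to 65.4 TPM for replicate 1 and 76.3 for replicate 2, and the family held 5097 and 6060 counts, or 0.0186% and 0.0217% of all gene counts. In a bulk sample fewer cells of a type and less RNA per cell cannot be told apart.

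Fzd1, Fzd2 and Fzd7 together made up 47.0% and 51.1% of the family's TPM. Fzd2, a receptor known to act with Fzd1 or Fzd7 in closure of the palate and of the ventricular septum, was the most abundant Frizzled gene by its mean, at 14.6 TPM in replicate 1 and 18.7 in replicate 2 (16.6 ± 2.88, SD, n = 2). It lies on chromosome 11 from 102604396 to 102608058 as a gene of 1 exon. Fzd1 (chromosome 5, 4753839 to 4758035) was at 14.7 and 16.1 TPM (15.4 ± 1.02). The ranges of Fzd1 and Fzd2 overlapped, and Fzd1 was the higher of the pair in replicate 1. Fzd7, known for its use in early mesoderm and in embryonic stem cells, stood at 1.43 TPM in replicate 1 and 4.18 in replicate 2 (2.81 ± 1.94). It is a gene of 1 exon on chromosome 1 from 59482424 to 59486955, and its SD was the largest of the family relative to its mean.

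Fzd4, Fzd9 and Fzd10 made up 24.2% and 21.0%. Fzd4 (chromosome 7, 89404355 to 89413134), which also serves Norrin in the growth of retinal vessels, was at 11.1 and 11.6 TPM (11.4 ± 0.382). Fzd9 (chromosome 5, 135248938 to 135251230) was at 4.53 and 4.07 TPM (4.30 ± 0.325) and was the one member with a lower value in replicate 2. Fzd10 (chromosome 5, 128600844 to 128604093) was at 0.18 and 0.30 TPM (0.240 ± 0.0849), on 12 and 20 counts, and was the one member under a TPM of 1. Fzd4 thus carried most of this subgroup, and at the depth of Fzd10 little can be said of its level.

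Fzd3 and Fzd6, the receptors best known for planar polarity and axon growth, made up 20.9% and 19.99%. Fzd6 (chromosome 15, 39006034 to 39038188) was at 7.95 and 8.90 TPM (8.43 ± 0.672). Fzd3 (chromosome 14, 65192449 to 65262463) was at 5.71 and 6.36 TPM (6.04 ± 0.460). Both had 6 coding exons, whereas 7 of the 10 family members had 1. Fzd5 and Fzd8, a pair of close relatives, made up 7.98% and 7.99%. Fzd8 (chromosome 18, 9212163 to 9218136) was at 3.96 and 4.74 TPM (4.35 ± 0.552). Fzd5 (chromosome 1, 64730558 to 64737751) was at 1.26 and 1.36 TPM (1.31 ± 0.0707). Fzd8 therefore carried most of the level of the pair in both hearts.

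By mean TPM the order was Fzd2, Fzd1, Fzd4, Fzd6, Fzd3, Fzd8, Fzd9, Fzd7, Fzd5 and Fzd10. A pair of neighbours was taken as not apart where the ranges of the libraries overlapped or the mean log2 ratio lay within its SD. This held for 4 of the 9 pairs, Fzd2 and Fzd1, Fzd8 and Fzd9, Fzd9 and Fzd7, and Fzd7 and Fzd5. The log2 ratio of Fzd1 over Fzd4 was 0.44 ± 0.05, that of Fzd4 over Fzd6 0.43 ± 0.07, that of Fzd6 over Fzd3 0.48 ± 0.01 and that of Fzd3 over Fzd8 0.48 ± 0.07 (SD, n = 2). Fzd5 stood above Fzd10 by 2.49 ± 0.44. Smo, the Hedgehog signal transducer of the same receptor class, was at 13.5 and 16.2 TPM, above Fzd4 and below Fzd2 in both hearts.

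**Figure D1:**
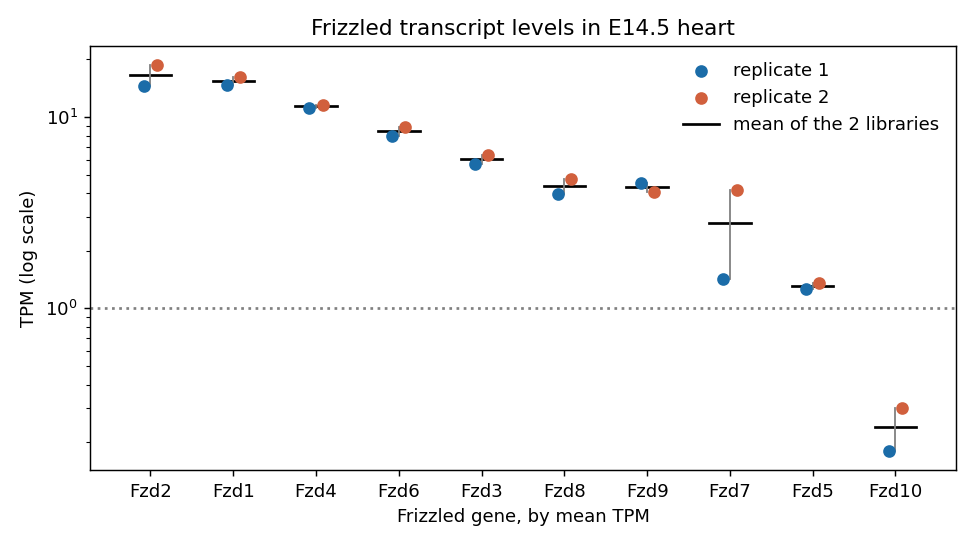
TPM (log scale) of each Frizzled gene in the hearts of replicate 1 (blue) and replicate 2 (orange), ordered by the mean (black bar), with a dotted line at a TPM of 1. The points of Fzd7 lie farthest apart, at 1.43 and 4.18 TPM, and Fzd10 alone lies under the line.

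The levels depend on the transcript lengths of the deposited annotation. Of the 10 leading transcripts, 5 had the same length in the tables and in GENCODE M21. Fzd3 had 4157 nt in the tables against 12734 nt, Fzd4 3685 against 6720 and Fzd8 3346 against 5974. Fzd1 (4163 against 4197 nt) and Fzd6 (4077 against 4325 nt) differed little. Where reads from the longer 3′ parts of Fzd3, Fzd4 and Fzd8 went was not tested.

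Between the hearts, Fzd7 was the gene that differed by more than 2-fold. It had 133 counts in replicate 1 and 390 in replicate 2, a ratio of 2.82 after TMM scaling, with an exact 95% interval of 2.31 to 3.46 that covers counting error only. On the log2 scale this was 1.49 (1.21 to 1.79). The authors' own intervals of TPM, whose level is not stated, were 1.17 to 1.64 and 3.68 to 4.49. These intervals did not overlap between the hearts. Of 1921 genes with a count within 1.5-fold of that of Fzd7, 0.208% differed as much in either direction, and the middle 95% of these genes lay between -0.43 and 0.55.

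The difference entered the choice of the family, so the shares of all genes are given only as background. Of 13218 genes averaging 50 counts or more, 105 (0.794%) differed by at least 2-fold, and 76 (0.575%) were higher in replicate 2. Of 6241 genes averaging 100 to 1000 counts, 35 (0.561%) were higher by at least 2-fold in replicate 2. Of the Frizzled genes, 9 passed the count minimum and 1, Fzd7, was past 2-fold. At 1.5-fold, 433 genes (3.28%) differed, 288 (2.18%) higher in replicate 2 and 145 (1.1%) higher in replicate 1. Fzd7 was again the only one of those 9 Frizzled genes past that limit, and none was higher by as much in replicate 1.

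Fzd2, of the same subgroup, had 1088 and 1399 counts. Its log2 difference of 0.30 (0.19 to 0.42) lay just outside that middle range for its own count, -0.28 to 0.28, and 3.51% of these 3250 genes differed as much. Its relative Fzd1, at 1249 and 1379 counts, had a difference of 0.09 (-0.03 to 0.20).

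Fzd4 had 832 and 877 counts and the smallest difference, 0.02 (-0.12 to 0.16). Fzd6 had 662 and 745 counts, a difference of 0.11 (-0.04 to 0.27). Fzd3 had 485 and 543 counts, a difference of 0.11 (-0.07 to 0.28). These 3 receptors thus had nearly the same scaled count in both hearts. Fzd8 had 269 and 324 counts, a difference of 0.21 (-0.03 to 0.45). Fzd5 had 159 and 195 counts, a difference of 0.24 (-0.07 to 0.55). Fzd9 had 208 and 188 counts, a difference of -0.20 (-0.50 to 0.09). The wider intervals of these genes come from their lower counts. For Fzd10 the difference was 0.66 (-0.42 to 1.85), on 12 and 20 counts.

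Of the 10 genes, which include Fzd10 with its lower count, 9 were higher in replicate 2. Among the 13218 genes averaging 50 counts or more, 6448 (48.8%) were higher there. The median of the 10 differences was 0.16, or 0.11 without Fzd7, beside a median of 0.00 over those genes. Without Fzd7 the summed level was 64.0 and 72.2 TPM, and the other 9 differences ran from -0.20 to 0.66. For 8 of the 10 genes the difference lay inside the middle 95% of genes with a like count. The counting interval excluded 0 for 2 of the 10, Fzd7 and Fzd2, and the differences entered the choice of the family.

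**Figure D2:**
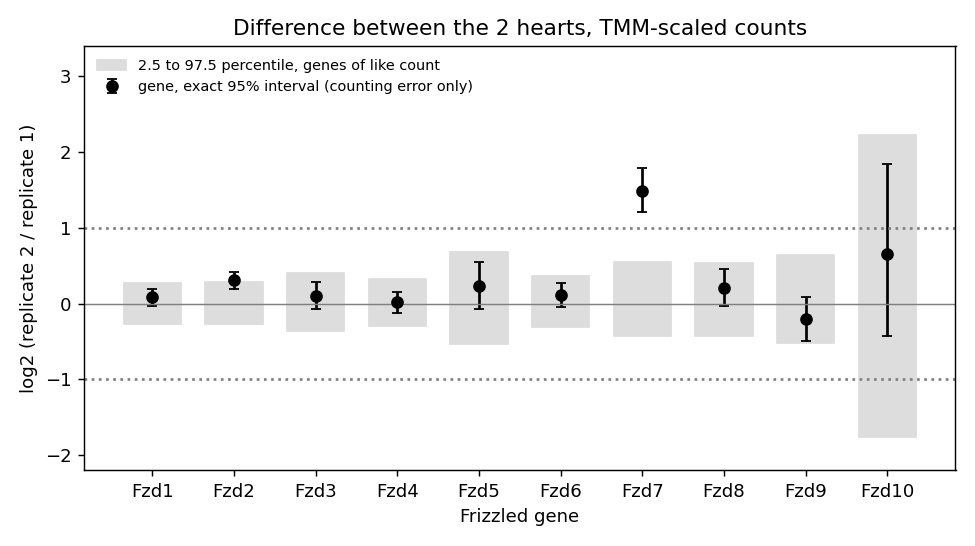
Log2 difference (replicate 2 over replicate 1, TMM-scaled counts) of each Frizzled gene with its exact 95% interval for counting error, beside the middle 95% of genes with a like count (grey) and dotted lines at 2-fold. Fzd7 at 1.49 lies far above its grey range, Fzd2 at 0.30 just above its own, and the other 8 inside theirs.

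Transcripts were listed singly for 7 of the genes, Fzd7 among them, so its difference is that of Fzd7-201. For Fzd6, transcript Fzd6-202 held 67.4% of the TPM in replicate 1 and 87.9% in replicate 2, and Fzd6-201 held 32.6% and 12.1%. The posterior standard deviation of their counts was 63.7 and 58.5, so the split of 446 and 216 counts in replicate 1, and of 655 and 90.4 in replicate 2, is loosely set. For Fzd5, transcript Fzd5-201 held 80.8% and 100%, with 14.2 and 0 counts on Fzd5-202. Fzd3-202 held all of the TPM of Fzd3 in both hearts, and Fzd3-201 was listed at 0.

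The overlapping genes that have a gene row had few counts. Fzd7 overlaps no annotated gene. Fzd5 overlaps the antisense Gm38058, which had 4.14 and 0 counts, and Fzd6 the antisense Gm26704, with 4 and 1 counts. Fzd3 holds Gm27263, which had 0 counts in both hearts, and the pseudogene Gm9086, which has no gene row and so no count. Whether counting used the strand is not given in the sources used here.

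The other genes of the pathway were read from lists of 91 genes, of which 61 reached 1 TPM in each heart. Those averaging 50 counts or more numbered 66, of which 2 were past 1.5-fold higher in replicate 2 and 2 past it in replicate 1, and none was past 2-fold. Their median difference was 0.11, close to that of the Frizzled genes without Fzd7, and 46 of the 66 were higher in replicate 2. Of all genes with that count 0.794% were past 2-fold and 3.28% past 1.5-fold. By these shares a list of 66 genes would hold few or none past 2-fold. The lists below are shorter still, so a list with none past 1.5-fold is only described.

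Of the 19 Wnt ligand genes, 6 reached 1 TPM in each heart. The 3 of highest level are ligands known mainly for signals without beta-catenin. Wnt5a was at 12.0 and 13.8 TPM, Wnt11 at 10.5 and 11.4 TPM and Wnt5b at 6 and 6.71 TPM, levels like those of Fzd1 to Fzd4 and Fzd6. Wnt1, Wnt3, Wnt3a, Wnt8b and Wnt10a, named for their count of 0 in both hearts, were not detected, which allows at most 0.0987 TPM for Wnt10a and less for the other 4. Of the 8 ligands with a count of at least 50, none was past 1.5-fold and 7 were higher in replicate 2, with a median difference of 0.21. Ligand export needs Wls, at 90.8 and 90.4 TPM, and the acyltransferase Porcn, at 2.83 and 3.28 TPM.

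Fzd4 works in vessels with partners that are specific to it or to Wnt7 ligands. Tspan12, the tetraspanin that aids Norrin, was at 59.6 and 63.6 TPM, above Fzd4 itself, and Reck and Adgra2, which assist Wnt7 signals, were at 7.86 and 9.03 and at 4.13 and 4.60 TPM. Norrin (Ndp) was under 1 TPM, at 0.88 and 0.98. None of these genes was past 1.5-fold, as for Fzd4.

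Of the 7 co-receptors, 6 reached 1 TPM. Ryk, a Wnt-binding kinase-like receptor, was lower in replicate 2, at 33.5 and 22.0 TPM (log2 difference -0.63, -0.74 to -0.53). Ptk7, a planar polarity co-receptor, was higher there, at 9.89 and 16.4 TPM (0.67, 0.55 to 0.80). Ror1, a receptor for Wnt5a, was at 11.4 and 9.64 TPM (-0.30, -0.41 to -0.18). The co-receptors thus moved in both directions, and Ptk7 in that of Fzd7.

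R-spondins and their receptors keep Frizzled proteins on the cell surface by holding back the ligases Rnf43 and Znrf3. Of 9 such genes, 5 reached 1 TPM and none of the 5 with a count of at least 50 was past 1.5-fold. Lgr4 was at 15.1 and 16.2 TPM, Rspo3 at 6.27 and 8.51 TPM and Rspo1 at 6.51 and 7.43 TPM. In the list of genes taken as Wnt inhibitors, the 3 of highest level stood above every Frizzled gene in both hearts. Sfrp2, a soluble protein with a Frizzled-like domain, was at 103 and 141 TPM (0.40, 0.34 to 0.46), its relative Sfrp1 at 71.5 and 77.9 TPM and Dkk3 at 51.1 and 67.3 TPM. Of the 15 genes of that list 8 reached 1 TPM, and none of the 9 with enough counts was past 1.5-fold.

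Inside the cell all 3 Dishevelled genes were detected, with Dvl3 at 14.2 and 13.7 TPM, Dvl2 at 11.6 and 12.8 TPM and Dvl1 at 7.12 and 8.47 TPM, close to the levels of the major Frizzled genes. Of the 9 genes of beta-catenin and its destruction complex none was past 1.5-fold, and Ctnnb1 (beta-catenin) was at 272 and 268 TPM, the kinases Csnk1a1 at 189 and 198 TPM and Gsk3b at 34.5 and 38.7 TPM. All 4 TCF/LEF genes were detected, led by Tcf7l2 at 43.8 and 42.02 TPM, then Tcf7l1 at 12.2 and 13.5 TPM and Lef1 at 4.28 and 4.60 TPM. Their list's median difference was 0.06.

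Of 13 Wnt target genes, 1 of the 9 with a count of at least 50 was past 1.5-fold in each direction. Axin2, a feedback inhibitor and common readout of beta-catenin signalling, had 41 and 82 counts and 0.72 and 2.03 TPM (0.93, 0.38 to 1.52). For Axin2, 3 counts were worth 0.0524 TPM in replicate 1 and 0.0744 in replicate 2, so the TPM values lie farther apart than the counts. Nkd2, another feedback inhibitor, had 208 and 138 counts and 2.61 and 1.84 TPM (-0.65, -0.97 to -0.33). The general growth genes Ccnd1, at 36.2 and 47.5 TPM, and Myc, at 21.5 and 20.2 TPM, were not past 1.5-fold. Of 12 planar polarity genes, 11 reached 1 TPM and averaged 50 counts or more, and none of these 11 was past 1.5-fold, among them Prickle1 at 31.6 and 31.6 TPM, Daam1 at 17.8 and 20.5 TPM and Vangl1 at 18.6 and 18.6 TPM.

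**Figure D3:**
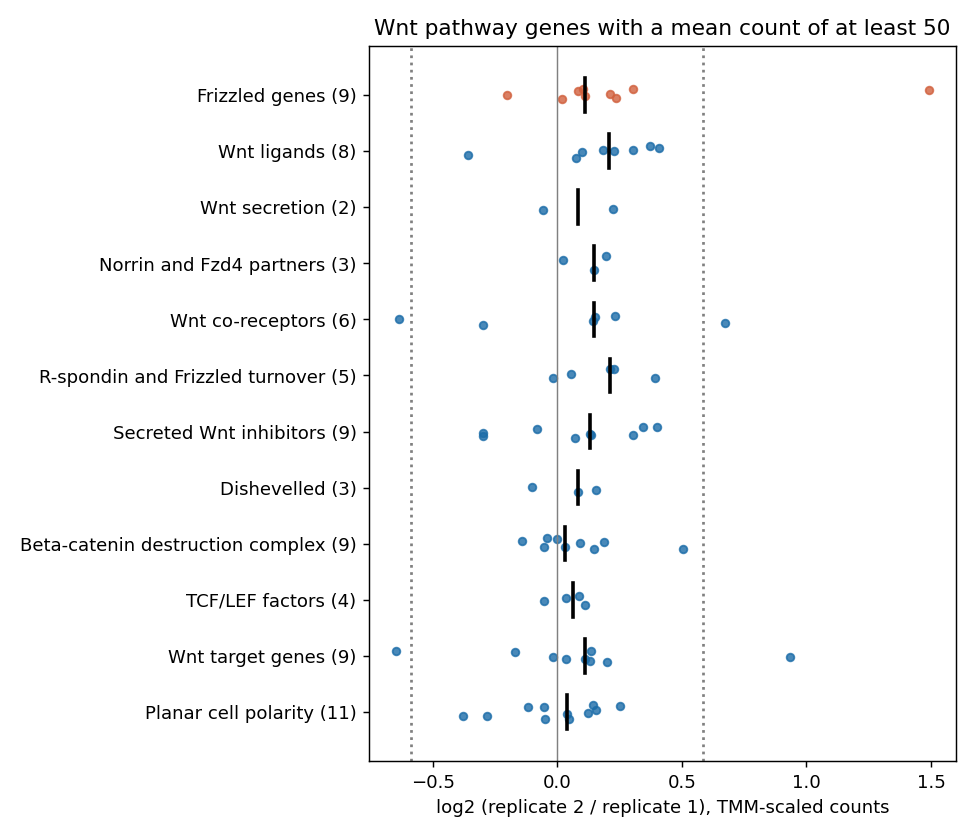
Log2 difference (replicate 2 over replicate 1) of single genes averaging 50 counts or more (points) by Wnt pathway list, with the number of genes in brackets, the list's median (black bar) and dotted lines at 1.5-fold. Fzd7 at 1.49 is the point farthest to the right, and Axin2, Ptk7, Ryk and Nkd2 are the other genes past the dotted lines.

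Some marker genes of several cell types also differed between the hearts. Of all genes averaging 50 counts or more, 2.18% were past 1.5-fold higher in replicate 2 and 1.1% past it in replicate 1. Of the 11 markers of the sinus venosus and second heart field (the inflow region and the progenitors of the outflow tract), 8 averaged 50 counts or more, all 8 were higher in replicate 2, 5 by more than 1.5-fold, and their summed level over all 11 was 59.7 and 110 TPM. Isl1 had 57 and 192 counts, Shox2 142 and 477 and Vsnl1 396 and 942. These 3 genes were past 2-fold, as was Fzd7 at 133 and 390 counts. Smoc2, the gene of highest level in the list, was not, at 1215 and 2304 counts (0.87, 0.76 to 0.97). Over the 8 genes the log2 differences ran from 0.14 to 1.69, with a median of 0.87, beside 1.49 for Fzd7.

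Of 8 smooth muscle markers, 6 were higher in replicate 2, 4 of them past 1.5-fold, led by Myh11 with 59 and 191 counts. Acta2, the marker of highest level, was lower there, at 1062 and 1003 TPM (-0.13, -0.15 to -0.11). The summed level was 1434 and 1492 TPM. Of 11 neural crest and neuron markers, 3 of the 7 with that count were past 1.5-fold higher, Tubb3 with 44 and 178 counts, Stmn2 with 59 and 207 and Ngfr with 68 and 163, and the sum was 100.4 and 122 TPM. Of 10 erythroid markers 7 were lower in replicate 2 by more than 1.5-fold, none was higher, and the sum was 61161 and 34778 TPM. Of 9 macrophage markers, Spp1, at 56.6 and 9.97 TPM, and Gpnmb, at 5.25 and 1.18 TPM, were lower by more than 2-fold. The other 7 were within 1.5-fold, 2 of them higher in replicate 2, and the sum over the 9 was 259 and 199.7 TPM.

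The other lists had at most 1 gene past 1.5-fold among those averaging 50 counts or more. Of 10 cushion and valve markers 1 was past 1.5-fold higher, with a sum of 454 and 474 TPM, and of 9 epicardial markers 1, Upk3b, with a sum of 187 and 217 TPM. None of the 7 cardiomyocyte markers (27622 and 26908 TPM) or of the 10 endothelial markers (739 and 752 TPM) was past 1.5-fold. The 6 lung markers, a check for neighbouring tissue, summed to 0.11 and 0.33 TPM, and Sftpc had a count of 0 in both hearts. The part of these cell types, of the sex of the embryos and of the day of collection in the difference of Fzd7 was not tested. With 1 library per embryo, sex and day of collection differ together and cannot be told apart.

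**Figure D4:**
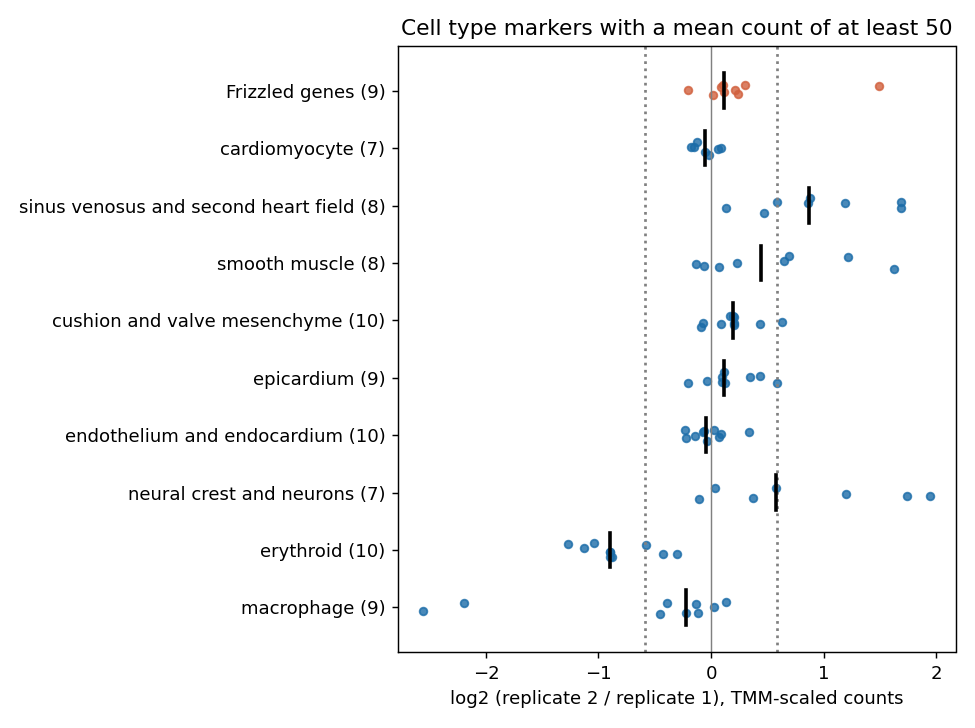
Log2 difference (replicate 2 over replicate 1) of single marker genes averaging 50 counts or more (points) by cell type, with the number of genes in brackets, the list's median (black bar) and dotted lines at 1.5-fold. The 8 sinus venosus and second heart field genes all lie to the right of 0, the 10 erythroid genes all to the left, and the cardiomyocyte genes near 0.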

How the data were processed

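RNA of 2 hearts was analysed from 1 gene table and 1 transcript table per library. Expected counts (estimated reads per row, not scaled by depth), TPM and FPKM (both per length and depth) and the percent of a gene's abundance per transcript were computed by the authors and deposited. Per the deposited text notes the build was mm10 and the annotation M4. Which aligner and quantification software were used, in what versions, is not given in the sources used here. Symbols and positions came from GENCODE M21 (GRCm38), matched on the gene identifier without its version, for 42462 of 43346 gene rows. No promoter or protein sequence was used.

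Expected counts were rounded to whole numbers and scaled by TMM in edgeR 4.0.16 (R 4.3.3), with factors of 0.988 and 1.01, and the script was tested on simulated data. Differences are log2 of replicate 2 over replicate 1 with a prior count of 0.5. Exact 95% Clopper-Pearson intervals (SciPy 1.17.1) and the limit of 3 counts for a count of 0 cover counting error only, since reads are not independent molecules. With 1 library per embryo no p-value was computed. Genes of like count have a mean count within 1.5-fold. Coding sequences were aligned with Biopython 1.88.

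The members and lists were chosen with earlier results of these data known. The named genes are all Frizzled genes and Smo, the 3 of highest mean TPM in each pathway list and each member past 1.5-fold, the 2 of highest mean TPM in each marker list and each member past 2-fold (in both cases averaging 50 counts or more), and the sex-linked genes. Not all marker genes that the rule names are printed. Alternatives were DESeq2 1.42.0 size factors, total count, spike-ins, TPM ratios, posterior means, FPKM and other minimums.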

Additional observations from a re-analysis of the deposited data

How the results depend on the processing

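The difference of Fzd7 ran from 1.49 to 1.61 over 5 alternatives of scaling and measure, and Fzd7 stayed the 1 Frizzled gene past 2-fold under 3 scalings and 3 count minimums. Of 50 alternative values of single Frizzled differences, 49 stayed inside the counting interval of the gene. The exception was Fzd1 scaled by spike-ins, at 0.20. Spike-in scaling moved the median of all genes to 0.11, so that the Frizzled median of 0.28 under it is to be read against that shift. By counts scaled for depth and not for length, 6 of the 10 genes kept their rank. Without replicate 1 or replicate 2 in turn, 6 to 8 genes kept their rank, and 9 were at a TPM of at least 1 either way. The count of detected genes depended on the limit, with 7 at a TPM of at least 2 and 8 at an FPKM of at least 1. With a mean count of at least 10, 8 pathway genes were past 1.5-fold in place of 4, since more genes of low count were then read. No paired analysis was possible because the series has 1 group. Counts of 12 and 20 limit what can be said of Fzd10.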
